A study of Danio rerio with 13 samples.

Results

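The sites compared here are genomic regions of the zebrafish embryo at which N6-methyldeoxyadenosine (6mA) was called at 12 h post fertilization (hpf), at 13 hpf, or at both stages. The summits of 4 libraries, 2 biological replicates at 12 hpf and 2 at 13 hpf, were pooled, and summits on the same chromosome with gaps of at most 250 bp were chained into regions. The 14174 summits of the 4 lists gave 7239 regions. Of these, 522 had a summit in both 12 hpf replicates and in neither 13 hpf replicate (12 hpf regions), 210 had a summit in both 13 hpf replicates and in neither 12 hpf replicate (13 hpf regions), and 536 had a summit in all 4 lists (shared regions). In the whole series, the 8 lists held 159142 summits, which the same chaining joined into 63852 regions.

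In bacteria, 6mA marks DNA for restriction systems, mismatch repair and the timing of replication. In animals it is scarce, and enzymes that write and remove it have been proposed but are less well established than those for 5-methylcytosine. At 12 and 13 hpf the zebrafish embryo is in early somitogenesis, when the axis extends and the first somites have formed, whereas the 64-cell (64C) stage is a cleavage stage before most transcription from the embryo's own genome begins.

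The study mapped 6mA by 6mA-IP-seq, which enriches fragments of genomic DNA (gDNA) with a 6mA antibody and compares their reads with those of unenriched gDNA, the input. The embryos were of the Tubingen strain, kept in Holtfreter's solution, and their gDNA was enriched with the Synaptic Systems (SYSY) antibody at 12 and 13 hpf and in the 2 replicates at 11 hpf and 1 library at 64C to which the regions were compared. A further 64C library was made with an Abcam antibody. A single input served both replicates at each stage from 11 to 13 hpf. A call found in both replicates of a stage and in no other can therefore come from the input as well as from the pull-down, and these cannot be told apart. The gDNA came from whole embryos, so that 6mA cannot be assigned to a cell type. The lists give the summits of the peaks that passed a false discovery rate of 0.01, each with a score, the −log10 of its q-value. A region without a summit in a list is therefore a region that was not called there, and not a region shown to lack 6mA. The depth of each library is unknown, since reads were not used here. A read that matched several places equally well was assigned to 1 of these by chance, and a region within a repeat may therefore represent another copy.

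More regions were found at 12 hpf alone than at 13 hpf alone in the lists as deposited, and this order turned when lists of equal length were taken. The 522 12 hpf regions were 7.21% of all regions, the 210 13 hpf regions were 2.9% and the 536 shared regions were 7.4%. Replicate 1 of 12 hpf had 3785 summits and 3044 regions, replicate 2 of 12 hpf had 4474 summits and 3607 regions, replicate 1 of 13 hpf had 3476 summits and 2872 regions, and replicate 2 of 13 hpf had 2439 summits and 1920 regions. Both 12 hpf lists were thus longer than both 13 hpf lists. The mean number of regions was 3326 ± 398 at 12 hpf and 2396 ± 673 at 13 hpf (SD, 2 libraries each), with p = 0.333 in an exact two-sided permutation test, the smallest p that 2 against 2 libraries allow. When the 2439 highest-scoring summits of every list were taken, there were 242 12 hpf regions and 256 13 hpf regions, and the mean number of regions per library differed by 4.5 in place of 929.5. Summits outside this cut counted as absent, so that a region could become one of a single stage by losing its summits of the other. Replicate 2 of 13 hpf, the shortest list, lost none. Equal numbers of summits also leave little room for a difference in regions per library.

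**Figure D1:**
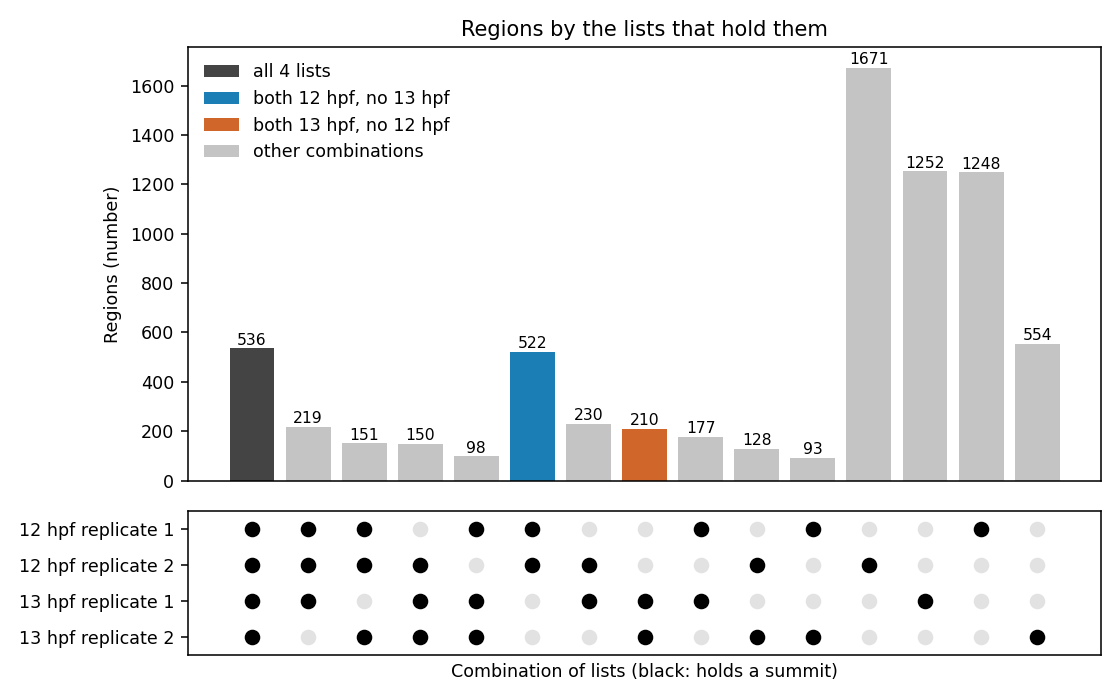
Number of regions (y axis, bars) for each combination of the 4 lists (x axis, where black dots mark the lists that hold a summit of the region). The 522 regions of both 12 hpf replicates and the 210 of both 13 hpf replicates stand beside the 536 shared regions and the 4 combinations of 1 list of each stage, which held 93 to 230 regions each.

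Regions found in 2 lists were more often in the 2 lists of the same stage than in 1 list of each. Of the 4 combinations of 1 list of each stage, replicate 1 of both stages held 177 regions, replicate 2 of both stages 128, replicate 1 of 12 hpf with replicate 2 of 13 hpf 93, and replicate 2 of 12 hpf with replicate 1 of 13 hpf 230. The 2 pairs of the same stage together held 732 regions, against 305 when the libraries were paired by replicate number and 323 when they were paired crosswise. An exact one-sided permutation over the 3 possible pairings gave p = 0.333, its smallest value. With lists of equal length the sums were 498, 213 and 202, and with the upper part of each list by score, from its median upward, they were 382, 162 and 142, so that the pairing by stage was the highest in each case. The 13 hpf pair alone, at 210 regions, did not exceed the 230 regions of replicate 2 of 12 hpf with replicate 1 of 13 hpf. Most regions, 4725 (65.3%), were found in 1 list, and these made up 41.0% and 46.3% of the regions of the 12 hpf replicates and 43.6% and 28.9% of those of the 13 hpf replicates. When a replicate was left out, its stage rested on 1 list and took in such single-list regions. The number of 12 hpf regions was then 2223 without replicate 1 of 12 hpf and 1818 without replicate 2, and the number of 13 hpf regions was 780 without replicate 1 of 13 hpf, 1473 without replicate 2 and 363 without replicate 2 of 12 hpf.

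The regions of a single stage were narrow and mostly held the least number of summits that could define them, with means close to that of other regions of 2 lists. Of the 12 hpf regions, 80.3% had exactly 2 summits, 1 for each replicate, and so did 88.1% of the 13 hpf regions. At least 3 summits were found in 103 12 hpf regions (19.7%) and 25 13 hpf regions (11.9%), and no 12 hpf region had more than 6 and no 13 hpf region more than 4. Their median widths from the first to the last summit were 43 bp and 24 bp. Regions found in 1 list of each stage only, which also draw on 2 lists, had a median width of 65 bp. Their mean was 2.18 summits, against 2.25 in 12 hpf regions and 2.14 in 13 hpf regions. Shared regions had a median width of 209.5 bp and a mean of 7.49 summits, and 107 of them (19.96%) had 10 or more. A shared region draws on 4 lists, which adds to both its width and its summits, so that the number per list is the closer comparison. It was 1.13 summits per list in 12 hpf regions, 1.07 in 13 hpf regions and 1.87 in shared regions. Regions found in 1 list of each stage only had 1.09, and all regions 1.12. Regions of 1 list had 1.03 and those of 3 lists 1.24, so that this number also rose with the number of lists. How much of the value in shared regions comes with that number was not tested. In replicate 1 of 12 hpf, 11.3% of the 12 hpf regions and 48.7% of the shared regions had more than 1 summit in that list. Over all regions of that list this share was 15.6%. The shared region with the most summits, picked out after its values were seen, lay at chr10:17301731-17304083 and held 54, with 14 and 17 in the 12 hpf replicates and 12 and 11 in the 13 hpf replicates. Over whole libraries the stages did not separate, with means of 1.242 summits per region at 12 hpf and 1.240 at 13 hpf (p = 1, exact two-sided permutation test, n = 2 each), and the sign of this difference depended on the chaining.

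Where a region was found in 2 lists only, the summits of these lists had shorter median distances when both were of the same stage. In the 12 hpf regions the nearest summits of the replicates were a median of 20 bp apart, and in the 13 hpf regions 18 bp. In the regions found in 1 list of each stage only, the 4 medians were 32.5, 38, 43 and 50.5 bp. Distances of at most 10 bp were found in 35.8% (95% interval 31.8 to 40.03) of the 12 hpf regions and 39.0% (32.7 to 45.8) of the 13 hpf regions, and in 14.8 to 29.7% of the regions of the other 4 pairs. The highest of these 4, replicate 2 of both stages at 29.7% (22.5 to 38.1), overlapped both intervals. Within 100 bp the shares were 81.6% for 12 hpf and 89.0% for 13 hpf regions, against 69.1 to 78.5% for the other 4 pairs. Averaged over the libraries paired by stage, by replicate number and crosswise, the shares within 10 bp were 37.4%, 25.3% and 17.6% (p = 0.333, exact one-sided permutation test over 3 pairings, the smallest it allows). In the shared regions, where all 4 lists have a summit, the same shares were 56.3%, 51.03% and 52.7%, so that the pairing by stage was again the highest, by a smaller margin.

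**Figure D2:**
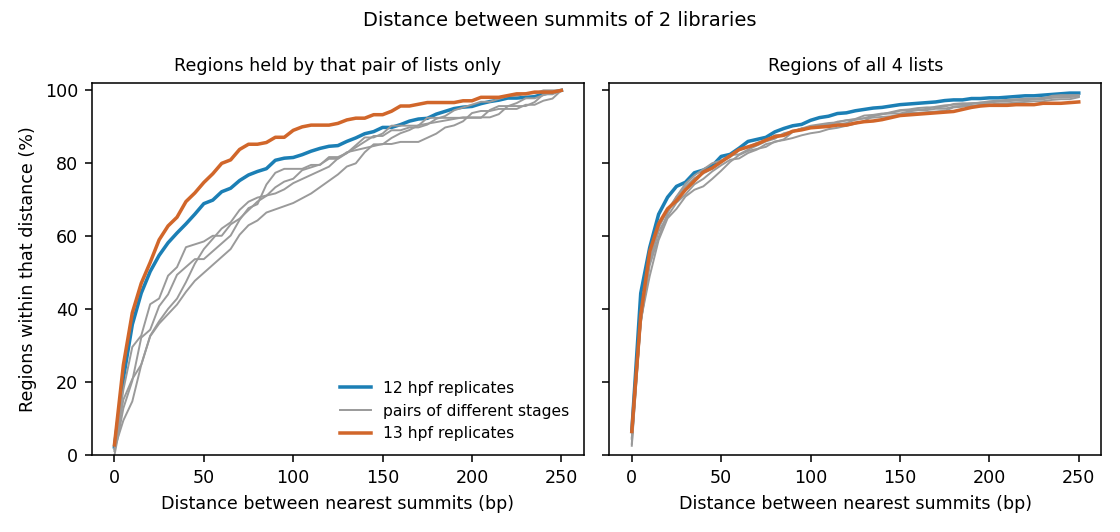
Cumulative share of regions (y axis, percent) against the distance between the nearest summits of 2 libraries (x axis, bp), with 1 line per pair of libraries, for regions found in those 2 libraries only (left) and for shared regions (right). On the left, the lines of both 12 hpf replicates and both 13 hpf replicates lie above those of the 4 pairs of different stages at 10 bp, at 35.8% and 39.0% against 14.8 to 29.7%.

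Some regions counted for 1 stage lay next to summits of the other. Of the 12 hpf regions, 59 (11.3%) had a 13 hpf summit within 500 bp and 112 (21.5%) within 1000 bp, and of the 13 hpf regions 40 (19.05%) had a 12 hpf summit within 500 bp and 62 (29.5%) within 1000 bp. The 12 hpf lists are longer than the 13 hpf lists, so that these shares cannot be compared between the stages. The share over all regions was not counted. On the other side of the threshold, 43 12 hpf regions (8.24%) and 8 13 hpf regions (3.81%) were held together by a gap of more than 200 bp. Without the regions that had a summit of the other stage within 1000 bp, 410 12 hpf regions and 148 13 hpf regions remained.

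Scores were compared by rank within each list, as the percentile of the highest summit of the region, because scores of different libraries have different ranges. The regions of a single stage had ranks near the middle of their lists, and the shared regions ranks near the top. The 12 hpf regions had a median percentile of 51.5 in replicate 1 and 53.3 in replicate 2, and the 13 hpf regions 58.1 in replicate 1 and 48.5 in replicate 2. The shared regions had medians of 82.9 and 83.6 in the 12 hpf replicates and 81.4 and 76.0 in the 13 hpf replicates. Regions of 1 list had medians from 37.3 to 40.6. Regions found in 1 list of each stage only had medians from 40.1 to 46.3, and whether rank bears on the distances between summits was not tested. As scores, the medians were 4.34 and 4.54 for the 12 hpf regions and 4.41 and 4.63 for the 13 hpf regions, against 6.56 to 7.68 for the shared regions. These ranks come from the same lists that define the regions and are given as a description, and wider regions with more summits have more chances of a high one.

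**Figure D3:**
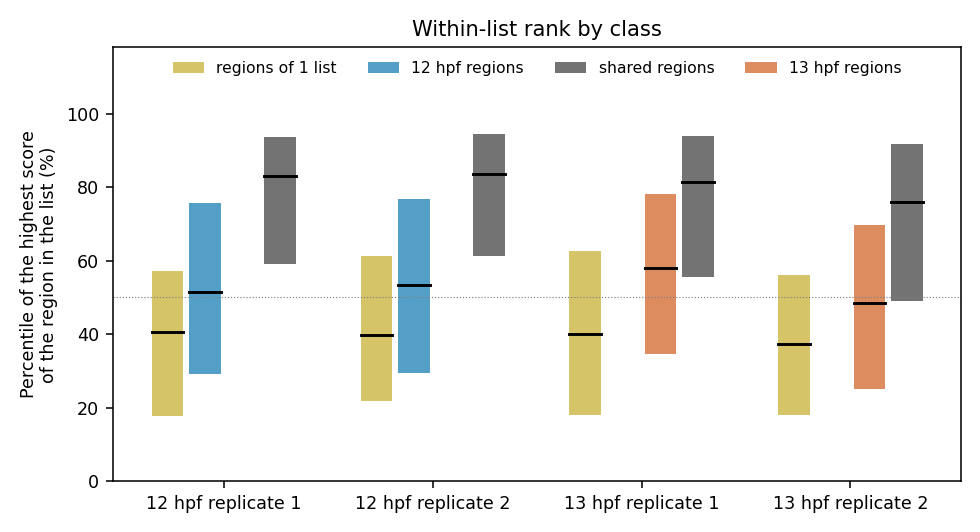
Within-list percentile of the highest score of each region (y axis) in each of the 4 libraries (x axis), by kind of region, with boxes from the lower to the upper quartile, a black line at the median and a dotted line at percentile 50. Shared regions sit highest, with medians from 76.0 to 83.6. Regions of a single stage have medians from 48.5 to 58.1 and regions of 1 list from 37.3 to 40.6.

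The high ends of the lists held some regions of a single stage, at shares close to or below those over all regions. In replicate 1 and replicate 2 of 12 hpf, 9.96% and 10.5% of the 12 hpf regions were at or above percentile 90 of the list, and in replicate 1 and replicate 2 of 13 hpf, 10.5% and 5.71% of the 13 hpf regions were. Over all regions these shares were 10.5% in both 12 hpf replicates and 10.6% and 10.9% in the 13 hpf replicates. Both replicates ranked the region at or above percentile 90 for 22 12 hpf regions (4.21%) and 6 13 hpf regions (2.86%). In the shared regions, 65 (12.1%) were at or above it in all 4 lists, and list by list 28.7 to 37.5% were. Conversely, 142 12 hpf regions (27.2%) and 54 13 hpf regions (25.7%) were below the median of both lists. Below the median of all 4 were 6 shared regions (1.12%). A condition on 4 lists is harder to meet than a condition on 2, so that these joint shares cannot be compared between the kinds. List by list, 47.9% and 46.9% of the 12 hpf regions and 41.0% and 51.4% of the 13 hpf regions were below the median. Of the shared regions, 18.7% and 18.5% were below it in the 12 hpf replicates and 20.9% and 25.6% in the 13 hpf replicates. Over all regions these shares were 49.6%, 50.3%, 50.2% and 47.9%.

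The 5 12 hpf regions with the best mean percentile were on 3 unplaced scaffolds and on chromosomes 12 and 17. The region at chr12:48447386-48447487 had a pair of summits in each replicate, at 48447386 and 48447487 with scores of 15.6 and 9.97 in replicate 1 and at 48447386 and 48447485 with scores of 9.68 and 19.7 in replicate 2. It had no summit at 11 hpf, but the 64C lists had the same pair, at 48447384 and 48447486 with the SYSY antibody (20.4 and 16.4) and at 48447388 and 48447486 with the Abcam antibody (10.5 and 11.1). The region at chr17:1729911-1729918 had scores of 15.3 and 14.2 in the 12 hpf replicates, no summit at 11 hpf, and a 64C SYSY summit at 1729916 with a score of 17.7. Both had thus been called at 64C and not at 11 hpf, within a few bases of the 12 hpf summit. Of the scaffold regions, KN150493v1 at 12946 to 12949 had scores of 15.8 and 19.6 in the 12 hpf replicates. It had 35.05 and 29.4 in the 11 hpf replicates, and no 64C summit. Scores of different lists are not on a common scale. KN149855v1 at 7624 to 7625 had 15.1 and 15.3 at 12 hpf and 14.6 and 7.77 at 11 hpf. KN149966v1 at 16293 to 16748 had 25.03 and 15.4 at 12 hpf, and 4.57 and 5.12 at 11 hpf. All 3 scaffold regions were thus called at 11 and 12 hpf and not at 13 hpf. The 64C SYSY list has no summit on any unplaced scaffold, so that its absence there says nothing about the region.

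The 5 13 hpf regions with the best mean percentile were on chromosomes 9, 14 and 19 and on 2 unplaced scaffolds, and 4 of them had also been called at 11 hpf. At chr19:11505294 both 13 hpf replicates had their summit at the same base, with scores of 21.5 and 11.7. The 11 hpf replicates had summits at 11505297 and 11505295 (10.5 and 9.44), and the 64C lists at 11505294 with the SYSY antibody (34.3) and at 11505298 with the Abcam antibody (13.2). This site was therefore called in every list of the series except both 12 hpf replicates. The region at chr9:50556844-50556943 had a pair of summits in each 13 hpf replicate, at 50556846 and 50556943 in replicate 1 (13.0 and 9.82) and at 50556844 and 50556939 in replicate 2 (13.8 and 19.3). The same pair was called at 11 hpf, at 50556843 and 50556942 in replicate 1 (7.87 and 17.9) and at 50556843 and 50556935 in replicate 2 (7.50 and 8.07), and in both 64C lists. The region at chr14:42201716-42201717 had scores of 10.6 and 13.2 at 13 hpf, no summit at 11 hpf and a score of 39.8 at 64C with the SYSY antibody. On the scaffolds, KN150324v1 at 23902 to 23904 had 17.5 and 26.4 at 13 hpf and 26.1 and 18.9 at 11 hpf, and KN150552v1 at 3353 to 3357 had 13.4 and 13.5 at 13 hpf and 4.86 and 6.75 at 11 hpf.

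The 3 regions with the most summits in each stage included a region named above for its scores in each, on scaffold KN149966v1 at 12 hpf with 5 summits and on chromosome 9 at 13 hpf with 4. Of the others, at chr23:44538592-44538906, replicate 1 of 12 hpf had 2 summits and replicate 2 had 4, with highest scores of 6.76 and 10.1. At chr25:8306083-8306291 the 12 hpf replicates had 3 and 2 summits, with highest scores of 5.78 and 11.1. The highest score there in the 64C SYSY list was 31.3. Among 13 hpf regions, chr7:56173824-56173985 had 3 and 1 summits, with highest scores of 8.14 and 3.31, and chr7:66201684-66201894 had 2 in each replicate, with highest scores of 4.61 and 5.38. The shared regions with the best mean percentile mostly held many more summits. At chr5:71653629-71654262, 27 summits were spread over the 4 lists and their highest scores were 26.2, 28.3, 20.2 and 18.8 in the order of 12 hpf and 13 hpf replicates. At chr15:5029609-5030467 there were 26 summits, with highest scores of 25.8, 23.6, 24.7 and 21.3, and at chr3:56795827-56796719 there were 24, with 17.7, 24.96, 22.2 and 25.3. Part of the positions of these chains recurred in all 4 lists, as with the summits of chromosome 5 at 71653632, 71653633, 71653629 and 71653631. Other positions were in fewer of the 4 lists. The summits at 71654138 on chromosome 5 and 56795827 on chromosome 3 were in replicate 2 of 12 hpf only. A scaffold region was an exception, KN150535v1 at 1277 to 1387, with 5 summits and scores of 26.3, 26.5, 25.6 and 26.03.

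All 3 kinds of region were found on all 25 chromosomes. A chromosome had 10 to 29 12 hpf regions (median 18), 1 to 13 13 hpf regions (median 7) and 11 to 32 shared regions (median 17). In the lists as deposited, where both 12 hpf lists are longer, the 12 hpf regions outnumbered the 13 hpf regions on 24 chromosomes, and chromosome 21 had 11 of each. With lists of equal length, at 242 and 256 regions in all, chromosomes were not counted. The widest gap was on chromosome 10, with 27 12 hpf regions (10.3% of its 263 regions) and 2 13 hpf regions (0.76%). The narrowest above zero was on chromosome 19, with 13 (5.10% of 255) and 11 (4.31%). Over all regions these shares were 7.21% and 2.9%. Unplaced scaffolds held 56 12 hpf regions (10.7%), 16 13 hpf regions (7.62%) and 82 shared regions (15.3%), against 7.9% of all regions. The 12 hpf and 13 hpf regions differed here by 3.11 points (95% interval −1.89 to 7.23).

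The ends of the chromosomes were rich in regions of every kind, and most of all in shared regions. On the numbered chromosomes, 200 of 466 12 hpf regions (42.9%), 75 of 194 13 hpf regions (38.7%) and 248 of 454 shared regions (54.6%) lay within 2 Mb of an end, and 38.1% of all regions did. The 2-Mb ends make up 7.46% of the chromosome length. The difference between 12 hpf and 13 hpf regions was 4.26 points with an interval of −4.03 to 12.2. Both were less terminal than the shared regions, by 11.7 points (5.25 to 18.03) for 12 hpf regions and 16.0 points (7.58 to 23.9) for 13 hpf regions. Of the regions of 1 list 34.8% lay there, and of those of 3 lists 46.8%, so that this share also rose with the number of lists. The median distance from the nearer end was 2.85 Mb for 12 hpf regions, 3.34 Mb for 13 hpf regions and 1.74 Mb for shared regions. More than 10 Mb from an end lay 24.9% of the 12 hpf regions, 20.6% of the 13 hpf regions and 11.5% of the shared regions. Intervals on shares of regions cover counting error only and treat regions as independent, although copies of a repeat and neighbouring regions are not. Per library, the end shares were 43.1% and 40.5% at 12 hpf and 39.6% and 43.7% at 13 hpf, which overlapped (p = 1, exact two-sided permutation test, n = 2 each).

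**Figure D4:**
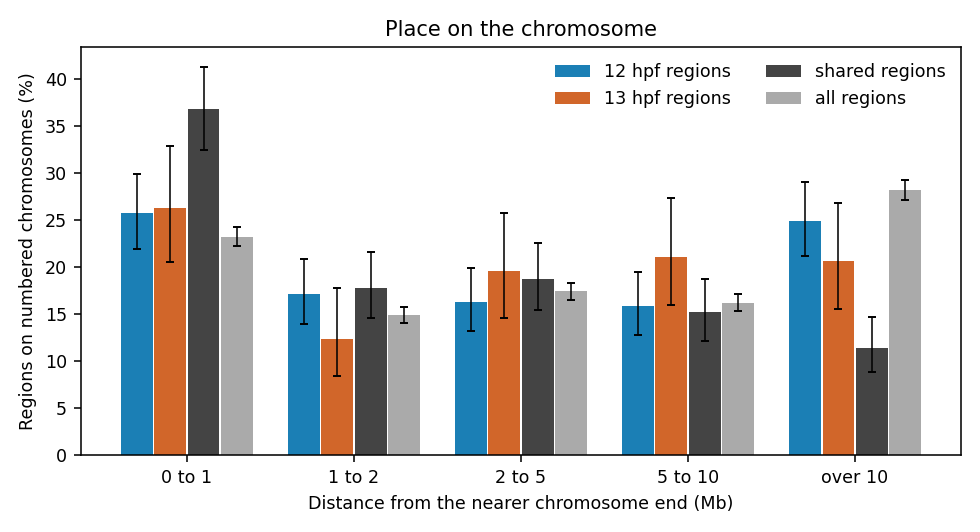
Share of regions on the numbered chromosomes (y axis, percent, bars) by distance to the nearer chromosome end (x axis, Mb), for 12 hpf, 13 hpf, shared and all regions, with 95% Wilson intervals. In the first 1 Mb the shared regions reach 36.8%, above the 25.8% of 12 hpf and 26.3% of 13 hpf regions, and beyond 10 Mb they fall to 11.5%.

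Of 1353 windows of 1 Mb, 287 (21.2%) held a 12 hpf region, 153 (11.3%) a 13 hpf region and 68 held both. A shared region was in 238 windows (17.6%), of which 111 also held a 12 hpf region and 73 a 13 hpf region. Windows with a region of any kind were not counted, so that these overlaps have no background here. The densest windows for 12 hpf regions held 7 each, at chr10:1000001-2000000 with 0 13 hpf regions and 1 shared region, at chr15:47000001-48000000 with 3 and 2, and at chr20:53000001-54000000 with 0 and 2. The densest for 13 hpf regions held 5 each, in the first 1 Mb of chromosome 19, which also had 4 12 hpf regions and 7 shared regions, and of chromosome 21, which had 6 and 8. The nearest shared region was a median of 456 kb from a 12 hpf region and 466 kb from a 13 hpf region. Over all regions this median was 527 kb, and from one shared region to the next it was 142 kb. Within 1 kb of a shared region lay 5.79% of the 12 hpf regions and 5.67% of the 13 hpf regions, against 4.11% of all regions.

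Most regions of a single stage had been called earlier in development. A summit of either 11 hpf replicate lay within 250 bp of 66.7% of the 12 hpf regions (95% interval 62.5 to 70.6), 60.5% of the 13 hpf regions (53.7 to 66.8) and 95.1% of the shared regions (93.0 to 96.7), against 49.3% of all regions. With the 11 hpf replicates taken apart, replicate 1 was present at 58.0% of the 12 hpf regions, 50.95% of the 13 hpf regions and 92.2% of the shared regions (41.7% of all regions), and replicate 2 at 42.5%, 39.5% and 86.6% (30.9% of all). Both 11 hpf replicates were present at 33.9%, 30% and 83.6% (23.4% of all). Most of the 13 hpf regions, which were not called in either 12 hpf list, were thus called at 11 hpf. The difference of 12 hpf minus 13 hpf regions was 6.19 points with an interval of −1.41 to 14.0, which includes 0. Both were called less often than the shared regions, by 28.5 points (24.0 to 32.9) and 34.7 points (27.9 to 41.6). Shared regions are defined by 4 lists and regions of a single stage by 2. An 11 hpf summit was present at 34.7% of the regions of 1 list and 87.1% of those of 3 lists, so that presence rose with the number of lists. How much of the difference comes with that number was not tested. Regions found in 1 list of each stage only (mixed regions) had an 11 hpf summit in 64.6% of cases, so that the difference to the mixed regions was 2.02 points (−3.50 to 7.48) for 12 hpf regions and −4.17 points (−11.8 to 3.25) for 13 hpf regions.

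**Figure D5:**
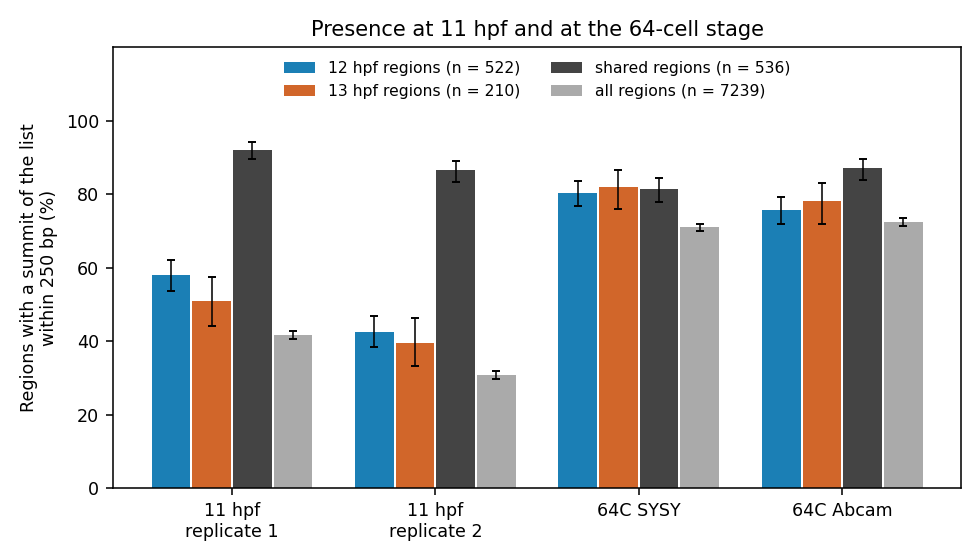
Share of regions (y axis, percent) with a summit within 250 bp in the 11 hpf replicates and the 64C SYSY and Abcam lists, for 12 hpf, 13 hpf, shared and all regions (bars), with 95% Wilson intervals. At 11 hpf the shared regions stand at 86.6% and 92.2%, above the regions of a single stage. For 64C SYSY these 3 kinds lie between 80.5% and 81.9%, with regions counted on unplaced scaffolds, which that list does not hold. Within the range that it covers, the shares were 92.1% for 12 hpf, 91.0% for 13 hpf and 99.3% for shared regions.

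Presence at 11 hpf was more frequent in regions of higher rank, and within each band of rank the shared regions had the highest share. With the mean percentile under 40, 59.6% of 171 12 hpf regions, 54.5% of 66 13 hpf regions and 92.3% of 39 shared regions had an 11 hpf summit. Between 40 and 60 these shares were 68.0% of 172, 59.4% of 69 and 92.0% of 112, and from 80 upward 76.1% of 88, 69.2% of 26 and 97.3% of 221. Single-list regions ran from 31.8% in the lowest band to 50.9% in the highest. Where a summit was present at 11 hpf, the shared regions also had the highest rank in that list, with medians in replicate 1 of 64.7 for 12 hpf regions, 70.2 for 13 hpf regions and 89.8 for shared regions, against 62.4 for all regions. In replicate 2 the medians were 55.7, 60.6 and 84.1, against 60.6 for all regions, so that the regions of a single stage lay at or below that value there.

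Most regions of each kind were also called at 64C. A 64C SYSY summit lay within 250 bp of 80.5% of the 12 hpf regions, 81.9% of the 13 hpf regions and 81.3% of the shared regions, against 71% of all regions. A 64C Abcam summit was present at 75.7%, 78.1% and 87.1%, against 72.6% of all regions. The mixed regions, which also draw on 2 lists, had a SYSY summit in 80.1% and an Abcam summit in 74.7% of cases. These shares were close to those of the regions of a single stage. The 64C lists are 1 library for each antibody. Peak names of the later lists carry a replicate mark that the SYSY list replaces with another and the Abcam list lacks. The labels do not explain this mark, and whether 64C was a separate experiment is not known. Stage and a possible difference between experiments therefore cannot be told apart in comparisons with 64C. The 64C SYSY list also holds none of the unplaced scaffolds and stops short of the end on 5 chromosomes. Within the range that it covers, 420 of 456 12 hpf regions (92.1%, 89.3 to 94.2), 172 of 189 13 hpf regions (91.0%, 86.1 to 94.3) and 435 of 438 shared regions (99.3%, 98.0 to 99.8) had a 64C SYSY summit, against 79.1% of all regions there. The 12 hpf and 13 hpf regions differed by 1.10 points (−3.26 to 6.48), and they were below the shared regions by 7.21 points (4.70 to 10.1) and 8.31 points (4.76 to 13.3). With the Abcam antibody, 12 hpf and 13 hpf regions differed by −2.42 points (−8.79 to 4.58), and they were below the shared regions by 11.5 points (6.79 to 16.1) and 9.03 points (3.10 to 15.6). Regions of 1 list had an Abcam summit in 69.2% of cases and regions of 3 lists in 79.0%. Where a 64C SYSY summit was present, its median percentile in that list was 79.1 for 12 hpf regions, 71.9 for 13 hpf regions and 91.2 for shared regions, against 71.9 for all regions, so that the 13 hpf regions were at the background. In the Abcam list the medians were 81.5, 84.0 and 87.2, against 75.4 for all regions.

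Few regions of a single stage were without a summit in the earlier lists. A 64C summit of either antibody was found at 95.02% of the 12 hpf regions, 96.2% of the 13 hpf regions and 98.7% of the shared regions. It was found at 94.9% of the mixed regions and 89.3% of all regions. No 11 hpf summit was found at 174 12 hpf regions (33.3%), 83 13 hpf regions (39.5%) and 26 shared regions (4.85%), against 3672 of all regions (50.7%). Neither an 11 hpf nor a 64C summit was found at 13 12 hpf regions (2.49%), 4 13 hpf regions (1.90%) and 2 shared regions (0.373%), against 624 of all regions (8.62%). Some of these 12 hpf and shared regions were on unplaced scaffolds, where the 64C SYSY list has no summit and its absence says nothing. The 4 13 hpf regions, named after their values were seen, were chr13:42842021-42842022 with scores of 8.44 and 6.58 in the replicates, chr15:47708188-47708192 with 5.57 and 8.98, chr18:11833449-11833546 with 4.61 and 4.90, and chr5:62388686-62388693 with 6.34 and 3.88. Their scores ranked above the middle of their lists on average. Summits in both 11 hpf replicates and both 64C lists were found at 125 12 hpf regions (23.9%), 47 13 hpf regions (22.4%) and 314 shared regions (58.6%), against 1186 of all regions (16.4%). Among the 12 hpf regions, 84.2% of those with an 11 hpf summit and 73.0% of those without one had a 64C SYSY summit, and among the 13 hpf regions 81.1% and 83.1%. These shares include 66 12 hpf and 21 13 hpf regions outside the range of the 64C SYSY list, and 0 of these had a SYSY summit. An 11 hpf summit was present at 62.1% of these 66 and 76.2% of these 21, so that the SYSY shares cannot be compared between the kinds. In the Abcam list the shares were 79.9% and 67.2% for 12 hpf regions, and 81.9% and 72.3% for 13 hpf regions.

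These differences between 12 hpf and 13 hpf regions depend on the requirement of both replicates. With a replicate left out, its stage rests on 1 list and takes in single-list regions, of which 34.7% had an 11 hpf summit. The difference in presence at 11 hpf between 12 hpf and 13 hpf regions was then −25.1 points without replicate 1 of 12 hpf, −25.7 without replicate 2 of 12 hpf, 27.4 without replicate 1 of 13 hpf and 35.0 without replicate 2 of 13 hpf. In each case the stage that had lost a list was the lower. For 64C SYSY the same differences were −12.8, −13.3, 6.45 and 15.4 points. In the same order, the Abcam differences were −7.40, −5.90, 4.46 and 8.95 points. At the chromosome ends they were −4.85, −1.02, 7.89 and 11.2 points.

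Over all regions of each library, the stages did not separate in any of these measures. An 11 hpf summit was present at 61.0% and 59.4% of the regions of the 12 hpf replicates and at 59.4% and 70.4% of those of the 13 hpf replicates, with means of 60.2% ± 1.17 and 64.9% ± 7.78 (SD, n = 2 each; p = 0.667, exact two-sided permutation test). The highest of the 4 was replicate 2 of 13 hpf, the shortest list, and without it the difference of 12 hpf minus 13 hpf went from −4.68 to 1.05 points. A 64C SYSY summit was present at 74.2% and 74.8% at 12 hpf and at 72.9% and 78.4% at 13 hpf, and a 64C Abcam summit at 75.2% and 76.0% and at 74.4% and 77.7% (p = 1 for both, exact two-sided permutation test, n = 2 each). Without replicate 2 of 13 hpf these differences were 1.53 and 1.30 points, from −1.17 and −0.49 with it. In each measure the values of the 13 hpf replicates lay on both sides of the 12 hpf replicates or met them.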

How the data were processed

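The authors pulled down 6mA-containing gDNA, sequenced it and the inputs, mapped reads to danRer10 with Bowtie (version 1.0 in the submitters' processing notes), placing multiply matching reads at 1 best match at random, and called peaks with MACS2 from IP and input reads, at a false discovery rate of 0.01. They deposited summit positions with a score, the −log10 of the q-value, which was ranked only within a list (ties at the mean rank). Samples were grouped by stage, antibody and replicate from their titles. The members and alternatives were chosen with earlier results of these data known.

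Summits, counted from 1, of the 4 lists of 12 and 13 hpf were chained with gaps of at most 250 bp. A region was present in another list with a summit within 250 bp of its span. Chromosome length was taken up to the last summit of any list. Shares carry 95% Wilson intervals and their differences Newcombe intervals. Libraries were compared by exact permutation, which for 2 against 2 cannot go below p = 0.333. Whether the replicates came from separate clutches is not given in the sources used here, and p-values measure the spread between these libraries. The regions named were, for each kind, the 5 with the best mean percentile and, for each stage, the 3 with the most summits. Chaining and matching were tested on simulated lists with planted regions.

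Alternatives were chaining at 100, 500 or 1000 bp, lists of equal length, summits at or above the median score, 1 summit per peak, numbered chromosomes only, no summit of the other stage within 1000 bp, matching to the highest-ranked summit, only positions within reach of the 64C SYSY list, both 11 hpf replicates, ends of 1 or 5 Mb, leaving out each replicate, and a replicate block. No danRer10 genome or annotation was used here, so that regions were not assigned to genes or repeats and no sequence is shown. Scripts ran in Python 3.11.15 with pandas 2.3.3 and NumPy 2.4.6. Tests used SciPy 1.17.1, and figures matplotlib 3.10.9.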

Additional observations from a re-analysis of the deposited data

How the results depend on the processing

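Taking as many summits from each list as the shortest list holds moved the number of 12 hpf regions from 522 to 242, and turned the differences of 12 hpf minus 13 hpf libraries in the share of regions with an 11 hpf summit (0.55 points), with a 64C Abcam summit (0.64 points) and in summits per region (−0.00332). Keeping summits at or above the median score gave 270 12 hpf, 112 13 hpf and 278 shared regions. Summits per region also turned with chaining at 100 bp (−0.0126) and on numbered chromosomes only (−0.00175), and the share at chromosome ends with chaining at 500 bp (−0.25 points) and 1000 bp (−0.34) and with ends of 5 Mb (−0.68). The cause was not tested. With so few libraries the permutation test cannot give p below 0.333 in any setting, so that p cannot decide these differences. Without each replicate in turn, the numbers of 12 hpf, 13 hpf and shared regions ran from 676 to 2223, 313 to 1473 and 636 to 756. The differences between 12 hpf and 13 hpf regions ran from −25.7 to 35.0 points for 11 hpf, −13.3 to 15.4 for 64C SYSY, −7.40 to 8.95 for 64C Abcam and −4.85 to 11.2 for the ends. Those between libraries ran from 455.5 to 1412 regions, −0.0239 to 0.0316 summits per region, −1.74 to 2.06 points at the ends, −10.3 to 1.05 for 11 hpf, −3.85 to 1.53 for 64C SYSY and −2.16 to 1.30 for 64C Abcam. The larger number of regions per library at 12 hpf kept its direction in every alternative that could change it, but the difference was 4.5 with lists of equal length. The replicate block and the removal of regions with a summit of the other stage within 1000 bp leave this difference at 929.5 by construction. With the replicate number as a block, p was 0.5, the smallest possible, for regions per library and for regions split by stage, and 1 for the other 5 library measures. Deviations of same-numbered replicates correlated at 0.018 over 7239 regions, and the numbers were not taken as a pairing. Since 65.3% of these regions were in 1 list only and regions are not replicates, this value cannot show whether same-numbered replicates were handled together. Unknown depth limits each absence from a list.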
